A study of Homo sapiens with 6 samples.

Results

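COLO205 is a line of colon cancer cells, and the arrays that carry its name compared cells kept for 2 weeks with imetelstat with cells kept with vehicle, and they were chosen by the cell line given in the sample labels. They are 2 of the 6 arrays of the series, 1 with imetelstat (labelled COLO-GRN) and 1 with vehicle (labelled COLO-WT), and the remaining arrays hold the same pair for HCT116, another colon cancer line, and for OVCAR5, labelled an ovarian cancer line. The labels call the control agent vehicle, the methods of the study describe a mismatch oligonucleotide as the control, and a legend calls the control cells untreated, and these sources leave the control undecided. The methods speak of biological replicates, but the labels give 1 array for each line and agent, so every value below compares 1 array with 1 array, by size alone and with no replicate check. On these 2 arrays 17138 of 47231 probes were detected, which is a detection p-value below 0.01 on at least 1 of them, and they represented 10464 genes by the brightest probe of each.

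Imetelstat is an oligonucleotide that pairs with the template region of TERC, the RNA component of telomerase, and so blocks the enzyme that extends chromosome ends with its catalytic subunit TERT. Type I interferons act through the kinase JAK1 and the DNA-binding factor IRF9, which recognizes a repeated GAAA element in the promoters of interferon-stimulated genes, most of them antiviral. Canonical histone genes lie in clusters, are transcribed mainly in S phase and make mRNAs that mostly end in a stem-loop in place of a poly(A) tail, and several of them are near-identical copies.

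The sequences that the leading genes of these groups share are given first. The 300-base promoter windows of IFI6 and IFIT1, the interferon-stimulated genes with the lowest ratios, are written 5′ to 3′ on the strand of the gene from RefSeq (GRCh38.p14), with each GAAANNGAAA match on either strand in capitals. IFI6 lies at chr1:27672143-27672442 on the minus strand and IFIT1 at chr10:89392373-89392672 on the plus strand.
IFI6: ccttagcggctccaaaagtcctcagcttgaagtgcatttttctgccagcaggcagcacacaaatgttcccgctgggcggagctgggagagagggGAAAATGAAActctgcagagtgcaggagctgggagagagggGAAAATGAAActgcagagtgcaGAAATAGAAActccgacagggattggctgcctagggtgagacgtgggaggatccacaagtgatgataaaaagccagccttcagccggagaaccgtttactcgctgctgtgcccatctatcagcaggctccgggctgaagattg
IFIT1: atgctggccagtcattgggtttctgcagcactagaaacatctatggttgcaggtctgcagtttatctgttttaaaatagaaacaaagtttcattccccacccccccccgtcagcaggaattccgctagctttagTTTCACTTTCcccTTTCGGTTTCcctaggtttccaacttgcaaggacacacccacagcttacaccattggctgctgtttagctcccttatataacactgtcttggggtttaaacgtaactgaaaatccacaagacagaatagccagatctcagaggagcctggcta
The window of IFI6 held 3 matches, which began 156, 115 and 93 bases before its start, and that of IFIT1 held 2, which began 116 and 103 bases before. GAAANNGAAA stood in the windows of 24 of the 33 measured interferon-stimulated genes that have one, 72.7%, against 1195 of all 27305 genes with a window, 4.38%. The histone genes H2AC18, at chr1:149842701-149843000 on the minus strand, and H2AC20, at chr1:149886668-149886967 on the plus strand, are shown because they stood among the highest ratios, with CCAAT boxes on either strand in capitals.
H2AC18: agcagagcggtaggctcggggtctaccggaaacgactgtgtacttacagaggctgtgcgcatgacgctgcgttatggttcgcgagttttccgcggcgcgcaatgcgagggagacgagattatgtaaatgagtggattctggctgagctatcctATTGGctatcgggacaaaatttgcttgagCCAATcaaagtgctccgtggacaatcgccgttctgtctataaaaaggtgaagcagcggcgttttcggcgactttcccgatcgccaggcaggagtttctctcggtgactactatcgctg
H2AC20: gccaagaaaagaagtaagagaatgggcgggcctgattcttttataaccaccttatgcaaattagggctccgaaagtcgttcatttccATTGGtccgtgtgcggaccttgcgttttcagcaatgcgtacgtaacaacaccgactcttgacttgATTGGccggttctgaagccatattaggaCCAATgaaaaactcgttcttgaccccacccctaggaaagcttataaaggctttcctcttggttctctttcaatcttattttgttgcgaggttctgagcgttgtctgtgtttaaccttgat
The window of H2AC19, at chr1:149850811-149851110 on the plus strand, matched that of H2AC18 in 299 of 299 aligned bases after a shift of 1. The window of H2BC21 shares 265 of its 300 bases with that of H2AC20 on the opposite strand, so these genes are transcribed away from each other from the same stretch. A CCAAT box stood in the windows of 14 of 17 measured clustered histone genes, 82.4%, against 39.7% of all genes with a window. The shares describe the lists, take no account of the ratios, and are set against all genes with a window, measured or not. A match describes the letters of the window and not a bound site.

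The label COLO205 was checked against marker genes. The list of colon epithelium markers holds 20 genes, and the imetelstat array detected 6 of them and the vehicle array the same 6, EPCAM, KRT8, KRT18, KRT19, CDH1 and the intestinal transcription factor CDX2. CEACAM5, which encodes carcinoembryonic antigen, CEACAM6, KRT20, CDH17, MUC13 and VIL1 were detected on neither. The same number, 6, was detected on each HCT116 array, and 12 and 13 on the imetelstat and vehicle arrays of OVCAR5. Of 16 Muellerian and ovarian markers 7 and 6 were detected with imetelstat and vehicle in COLO205, 6 and 6 in HCT116 and 6 and 7 in OVCAR5. MSLN, MSX1, KLK6, KLK7 and FOLR1 were detected on both COLO205 arrays and both HCT116 arrays, and WT1 and WFDC2 on none of these. Of 11 fibroblast markers 2 and 1 were detected with imetelstat and vehicle, of 14 leukocyte markers 1 and 1 and of 8 endothelial markers 1 and 1, with PTPRC, CD3E and PECAM1 on neither array. The COLO205 imetelstat array was at least 2-fold apart from the imetelstat and vehicle arrays of HCT116 in 182 and 230 genes, and the COLO205 vehicle array in 75 and 184 genes. The COLO205 arrays were at least 2-fold apart from those of OVCAR5 in 1769 to 1969 genes, and from each other in 31. The HCT116 arrays were that far apart from each other in 91 genes. This is more than the 75 between the COLO205 vehicle array and the HCT116 imetelstat array. Some genes did set the COLO205 arrays apart from those of HCT116. TFRC, the transferrin receptor, had log2 signals of 12.49 and 11.47 on the imetelstat and vehicle arrays of COLO205, against 10.16 and 9.94 in HCT116. CDKN1A, the gene of the cyclin-dependent kinase inhibitor p21, had 11.70 and 11.72 in COLO205, against 13.46 and 13.35 in HCT116. The cells are therefore called by their label throughout, and which line they were cannot be told from these arrays alone.

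The imetelstat array was the dimmer of the pair. Its mean signal was 359.8, against 458.6 with vehicle, which is 78.5%, and 15627 probes were detected on it, against 16068 with vehicle. Without scaling the median log2 ratio of imetelstat over vehicle was -0.31 over all genes, and in 10 bins of like signal it went down with signal, with -0.16 in the dimmest bin and -0.48 in the brightest. After quantile normalization, which gives each array the same distribution, the median ratio was -0.01 and the medians of the bins lay between -0.07 and 0.01. The SD of the log2 ratio over genes was 0.23 to 0.31 in the bins, a spread across genes that is no replicate error. All ratios below are log2 ratios of imetelstat over vehicle on quantile-normalized signals unless another scale is named, and unscaled ratios are given relative to the median of all genes. That median is a single value taken off at every signal level, so the trend with signal remains in the unscaled ratios. Lists of bright genes therefore lie lower on that scale and lists of dim genes higher, and it is no separate check of the normalized ratios. Signals start near 75 because no background was subtracted, which makes the differences of dim genes appear smaller.

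Few genes were far apart. Of 10464 genes, 16 had an imetelstat signal 2-fold or more below vehicle, 0.153%, and 14 had one 2-fold or more above it, 0.134%. The ratios of 5305 genes were below 0, 50.7%, and those of 5155 above it, and the list counts below are to be read beside these shares. With the arrays scaled to a common median 109 genes were lower, 1.04%, and 6 higher, 0.0573%. With no scaling 152 were lower, 1.45%, and 6 higher, 0.0573%. The 16 lower genes were all among those of both other scales, and 6 of the 14 higher genes were, namely H2AC19, H2AC18, H2AC20, FOSB, RHBDL2 and H2BC21. Both scales shift ratios down, with a median over all genes of -0.26 when median-scaled and -0.31 unscaled. The full overlap of the lower genes follows from that shift and is no separate check. The imetelstat array had the lowest signal of all 6 arrays in 13 of the 16 lower genes and the highest in 8 of the 14 higher genes. The genes were picked by the ratio of that array, so these counts are partly built in and do not back the calls. The limit fell between IRF9, at 49.9% of the vehicle signal, and ITFG1, at 50.3%, on the lower side, and between GRWD1 at 2.02-fold and RRP1 at 1.99-fold on the higher side. No gene detected on a single array of the pair reached a bound of 2-fold, among 424 genes detected with imetelstat alone and 659 with vehicle alone. RNA came from all cells of a culture, so fewer cells that make a transcript and less of it per cell cannot be told apart.

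**Figure D1:**
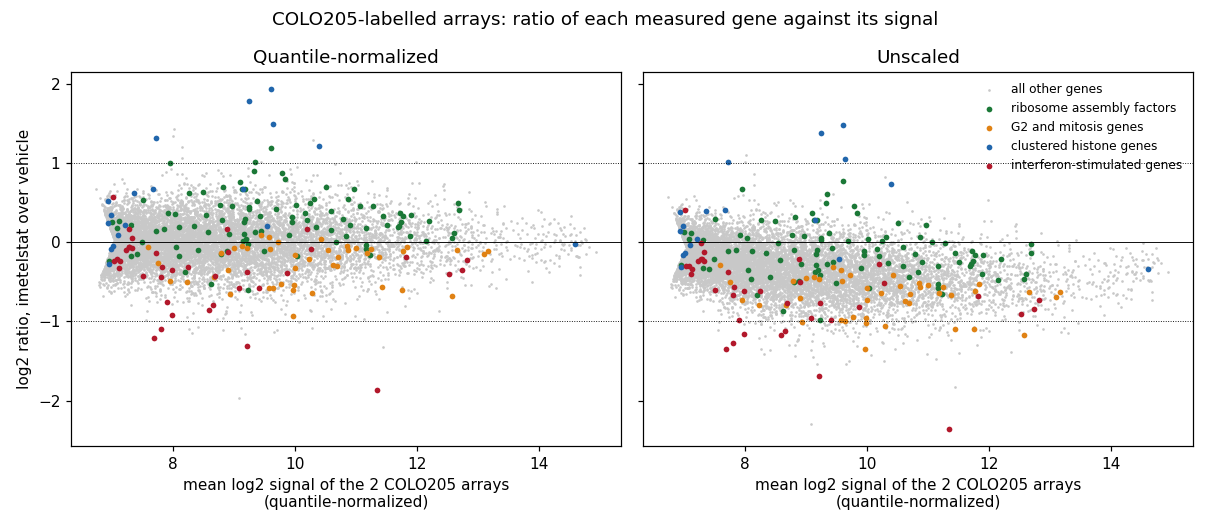
Log2 ratio of imetelstat over vehicle on the COLO205-labelled arrays (vertical axis) against the mean log2 signal of the pair (horizontal axis), quantile-normalized on the left and unscaled on the right, with 1 point for each of 10464 genes and 4 gene groups in colour. Dotted lines mark 2-fold, and 86.6% of the unscaled ratios lie below 0, with a median of -0.16 in the dimmest of 10 signal bins and -0.48 in the brightest.

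Interferon-stimulated genes held more of the lower genes than any other list used. Of 52 listed, 38 were measured, and 33 of these were lower with imetelstat and 5 higher, with a median ratio of -0.32, where 50.7% of all genes were lower and the median was -0.01. Relative to all genes the unscaled median was -0.31, with 27 members below and 11 above. The list made up 4 of the 16 genes at least 2-fold lower, IFI6, IFIT1, OASL and IFI27, and these 16 were 0.153% of all genes. IFI6, a mitochondrial protein induced by interferon, had log2 signals of 10.42 with imetelstat and 12.29 with vehicle, so that the imetelstat signal was 27.4% of that with vehicle. In HCT116 it had 12.32 and 14.63, and in OVCAR5 10.82 and 11.13, imetelstat before vehicle. The other IFI6 probe gave -2.20, beside -1.87 for the brighter one. The COLO205 imetelstat array was the lowest of the 6 for IFI6, and the COLO205 vehicle array stood near the HCT116 imetelstat array.

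IFIT1, which binds viral RNA that lacks a host cap, had log2 signals of 8.55 with imetelstat and 9.87 with vehicle, a ratio of -1.31. OASL, a relative of the oligoadenylate synthetases, had 7.08 and 8.29 in the same order, a ratio of -1.21. The dimmest detected probe of the imetelstat array had 7.06, so OASL was near the floor there and the size of its ratio is uncertain. The other probes of IFIT1 and OASL were detected on neither COLO205 array, and both calls rest on 1 probe. IFI27 had 7.26 and 8.35, a ratio of -1.09, also by 1 detected probe. These levels were low beside those of HCT116, where IFI27 had 9.23 with imetelstat and 12.76 with vehicle.

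Further members lay between 1.5-fold and 2-fold lower. The RNA sensor IFIH1 was at -0.92, SAMD9 at -0.85, the nuclear body protein SP110 at -0.79, with -0.86 and -0.47 by its other probes, and the ADP-ribosyltransferase PARP9 at -0.75, with -0.04 by its other probe. Of the members that stood higher, IFI44L had the largest ratio, 0.57, and RIGI, ISG20 and ZC3HAV1 were at 0.17, with the other ZC3HAV1 probe at -0.18. ISG15, a ubiquitin-like modifier, had 12.33 and 12.74 with imetelstat and vehicle, a ratio of -0.41. The median level of the 38 members was 7.74 with imetelstat and 8.38 with vehicle in COLO205, 8.48 and 10.77 in HCT116, and 9.57 and 9.29 in OVCAR5. The list median ratios were -0.32 in COLO205, -1.89 in HCT116 and 0.01 in OVCAR5, and the differences between lines were not tested.

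Upstream of these genes, 9 of 15 measured interferon signalling factors were lower and 6 higher, with a median of -0.15, beside 50.7% lower among all genes. IRF9, the DNA-binding subunit of the interferon complex, had 9.56 with imetelstat and 10.57 with vehicle. IRF7, a factor that interferon induces and that drives interferon genes, was at -0.89 and -0.52 by its probes, IRF3 at -0.39 and JAK1 at -0.37. IRF1 was at 0.16. Of 12 measured genes of MHC class I and peptide loading, 8 stood lower, the list median was -0.14, and the peptide transporter TAP1 had the lowest ratio, -0.49. NF-kB targets and chemokines showed no common direction, with 9 of 18 lower and 9 higher and a median of -0.02, or 0.08 unscaled relative to all genes. Among them CXCL8, the chemokine IL8, had log2 signals of 8.65 with imetelstat and 8.94 with vehicle, a ratio of -0.29 and rank 1487 of all genes from the lowest, and its other probe gave -0.12. IL6 and TNF were detected on neither COLO205 array.

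**Figure D2:**
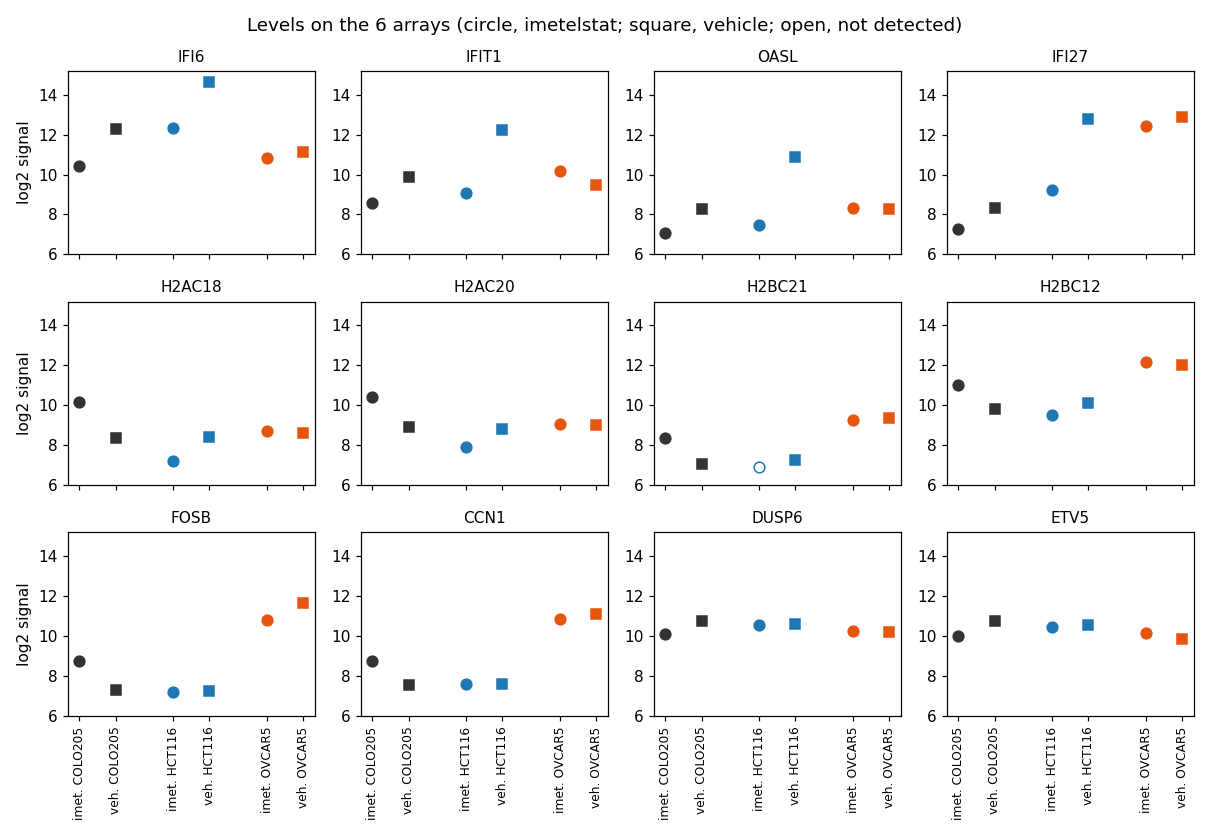
Log2 signal (vertical axis, quantile-normalized) of 12 genes on the 6 arrays, with circles for imetelstat, squares for vehicle, open symbols where the probe was not detected, and COLO205 in grey, HCT116 in blue and OVCAR5 in orange. In COLO205 the 4 interferon-stimulated genes of the top row are lower with imetelstat, the 4 histone genes of the middle row are higher, and FOSB and CCN1 are higher while DUSP6 and ETV5 are lower.

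Clustered histone genes held more of the higher genes than any other list used. Of 64 listed clustered histone genes 18 were measured, 14 of them higher with imetelstat and 4 lower, with a median of 0.43 and an unscaled median of 0.55 relative to all genes. The list gave 5 of the 14 genes at least 2-fold higher, and these 14 were 0.134% of all 10464 genes. Among all genes 5155 had a ratio above 0. H2AC19, which encodes a histone H2A, had log2 signals of 10.58 with imetelstat and 8.65 with vehicle, 3.82-fold. H2AC18 had 10.14 and 8.36, 3.44-fold, and its other probe gave 1.83 beside 1.78. Since the promoter windows of H2AC18 and H2AC19 are the same and the genes are near-identical copies, their ratios are not independent of each other, and whether their probes tell them apart was not tested. H2AC20 had 10.39 with imetelstat and 8.91 with vehicle, and H2BC21, an H2B gene that shares the promoter stretch of H2AC20, had 8.38 and 7.07. The dimmest detected probe of the vehicle array had 7.03, so H2BC21 was near the floor there and the size of its ratio is uncertain. Most clustered histone mRNAs lack a poly(A) tail, and how far the labelling captured such forms was not tested.

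H2BC12, another H2B gene, was 2.31-fold higher with imetelstat than with vehicle, where its log2 signal was 9.79, and its probes gave ratios of 1.21 and 0.94. H2BC5 was at 0.67 and 0.82 by its probes, H4C12 at 0.68, H2AC6 at 0.62 and H3C10 at 0.52. The lower members were H3C13 at -0.27, H3C7 at -0.08, H2BC7 at -0.05 and H4C3 at -0.03. H2AC18 stood on opposite sides on the arrays labelled COLO205 and HCT116, with 7.20 and 8.41 with imetelstat and vehicle in HCT116. Outside the clusters H2AJ, a variant H2A gene, was at 0.93 and CENPA, the histone H3 variant of centromeres, at -0.48, with -0.26 by its other probe. Genes of DNA replication and S phase, the phase in which clustered histones are made, had a median of 0.08, or 0.01 unscaled relative to all genes, with 26 of 41 higher and 15 lower.

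Genes of G2 and mitosis were lower as a group and by small amounts. All 44 listed were measured, and 41 were lower with imetelstat and 3 higher, but no member reached 2-fold. The median was -0.18, and the unscaled median -0.33 relative to all genes. Housekeeping genes had similar medians, -0.20 and -0.30 in the same order, with 9 of 13 measured lower and 4 higher. NEK2, a kinase that separates centrosomes, had 9.51 with imetelstat and 10.44 with vehicle, with a ratio of -0.93 by the brighter of its probes and -0.73 by the other. UBE2C, a ubiquitin-conjugating enzyme of the anaphase-promoting complex, was at -0.67 by its brighter probe and 0.12 by the other, the kinesin KIF14 at -0.65 and the checkpoint kinase BUB1 at -0.65. NUSAP1, a spindle protein, was at -0.60 and -0.62 by its probes. The median level of the list was 9.89 with imetelstat and 10.31 with vehicle in COLO205, 9.73 and 9.29 in HCT116 and 9.71 and 9.43 in OVCAR5. The COLO205 vehicle array had the highest median of the 6. Among 18 measured p53 targets 10 stood above 0 and 8 below it, with a median of 0.03, and CDKN1A was at -0.02.

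Feedback genes of the ERK pathway, which growth factor signalling induces, were led by lower members. Of 14 measured, 9 were lower and 5 higher, beside 50.7% lower among all genes. The median was -0.15, or -0.22 unscaled relative to all genes. SPRY4, an inhibitor of receptor tyrosine kinase signalling, was at -1.08 by its brighter probe and -0.38 by the other. The phosphatase DUSP6, which inactivates ERK, had 10.11 with imetelstat and 10.74 with vehicle, with ratios of -0.62 and -0.88 by its probes. ETV5, an ETS transcription factor, had 10.00 and 10.73, with ratios of -0.73 and -0.74. On the HCT116 arrays DUSP6 was at -0.06 and ETV5 at -0.09. ETV4, of the same family as ETV5, was at 0.35 by its brighter probe and -0.39 by the other.

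Immediate early and AP-1 genes went both ways, with 16 of 25 measured higher and 9 lower and a median of 0.23, or 0.13 unscaled relative to all genes. FOSB, an AP-1 subunit, had 8.74 with imetelstat and 7.30 with vehicle, 2.70-fold, against 7.21 and 7.24 in HCT116. CCN1, a secreted matrix protein, had 8.75 and 7.55, 2.30-fold. ATF3 was at 0.87, JUN at 0.60, MYC at 0.49, with 0.08 by its other probe, and FOS at 0.39, while KLF4 was at -0.63, ZFP36, an mRNA decay factor, at -0.62 and IER3 at -0.36.

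Genes of ribosome assembly and RNA processing stood on the higher side. RRS1, a ribosome assembly factor, had 10.20 with imetelstat and 9.01 with vehicle, 2.28-fold. GRWD1, a histone and ribosome chaperone, had 9.86 and 8.85, and RRP1, which acts in ribosomal RNA processing, had 8.46 and 7.46. A list of such factors was drawn up after these values were seen, so it only describes them: 77 of 95 measured were higher, 18 were lower, and the median was 0.25, or 0.17 unscaled relative to all genes. Before the median of all genes, -0.31, was taken off, the unscaled median of these factors was -0.14. NOP16 was at 0.67 and 0.60 by its probes and UTP14A at 0.63 and 0.96. Of 42 measured small nucleolar and Cajal body RNAs, which guide the modification of other RNAs, 29 were higher, 13 were lower and the median was 0.19, or 0.32 unscaled relative to all genes. SNORD68 was at 0.86 and SNORA62 at 0.85. SNORD16, a small nucleolar RNA that the list does not hold and that its counts leave out, had 8.69 with imetelstat and 7.63 with vehicle, a ratio of 1.06. SNHG15, a host gene of a small nucleolar RNA, was at 0.95 and 1.15 by its probes. The cytosolic ribosomal proteins themselves had a median of -0.02, with 38 of 68 lower, and RPL37 at -1.09 was far from the rest.

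Telomerase components could be followed in part. TERT, the catalytic subunit, was detected on none of the 6 arrays. TERC was detected with imetelstat, at a log2 signal of 7.14, and not with vehicle, at 6.99, which allows only a bound of at least 1.07-fold higher. Of 18 measured genes of telomerase and shelterin 13 were higher, 5 were lower and the median was 0.14, or 0.16 unscaled relative to all genes. Dyskerin (DKC1) had 11.51 with imetelstat and 11.05 with vehicle, and its partner GAR1 had 11.30 and 10.84 by its brightest probe, a ratio of 0.46. The other 3 GAR1 probes gave 0.83, 0.29 and -0.41, so its direction depends on the probe. Dyskerin and GAR1 also act in ribosomal RNA modification.

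Glycolysis and hypoxia genes were lower in 22 of 26 measured, with a median of -0.23, or -0.37 unscaled relative to all genes. These are bright genes, with a median level of 11.97 with imetelstat and 12.21 with vehicle, for which unscaled ratios run lower. PKM, the pyruvate kinase of glycolysis, was at -1.32 by its brightest probe, but at -0.40 and -0.02 by its other probes. ENO2, an enolase, had 11.08 with imetelstat and 11.96 with vehicle, a ratio of -0.88, ANKRD37 was at -0.68 and DDIT4, an inhibitor of mTOR signalling, at -0.53. The list median was 0.04 in HCT116 and 0.17 in OVCAR5. Nuclear genes of oxidative phosphorylation had a median of -0.04. Genes of sterol synthesis and uptake had a median of -0.01, with 9 of 18 on either side, FDPS at -0.89 and SC5D at 0.83. The Wnt list had a median of 0.07, with the Wnt inhibitors NKD2 at -1.07 and AXIN2 at 0.89 on opposite sides and SOX9 at -0.71. ACTB, the actin often used as a reference, was at -0.23, and the 13 measured housekeeping genes had a median of -0.20, with TFRC at 1.02. This median is the ratio of GAPDH, which the glycolysis list also holds, so these lists overlap.

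**Figure D3:**
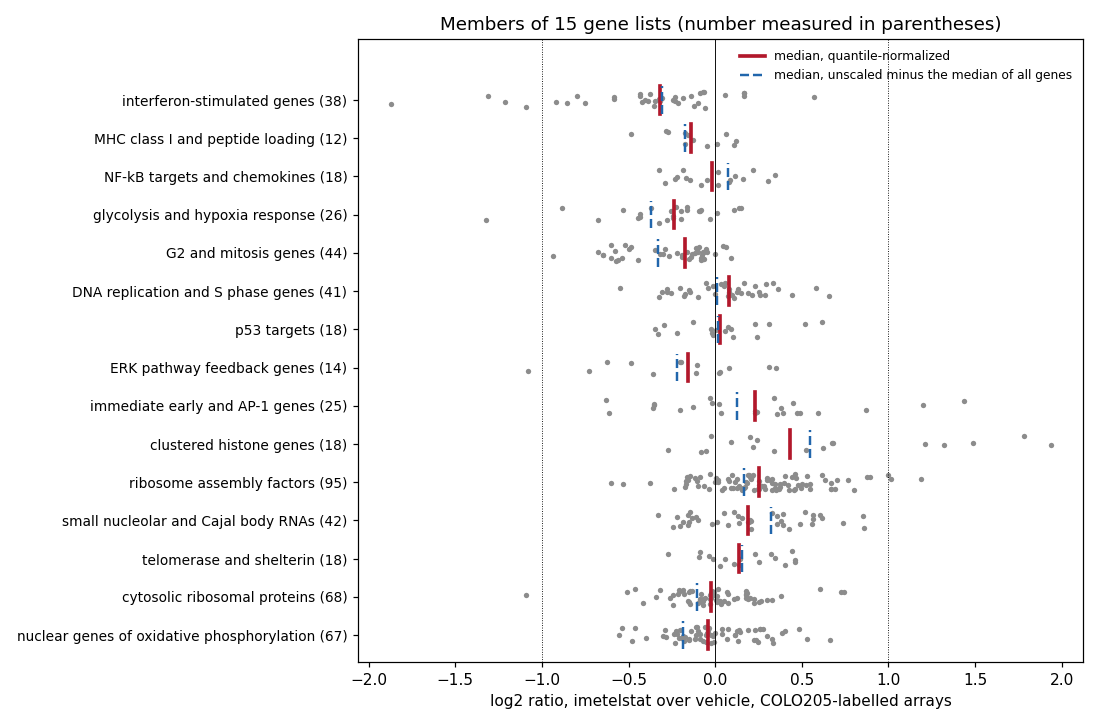
Log2 ratio of imetelstat over vehicle on the COLO205-labelled arrays (horizontal axis) for the measured members of 15 gene lists (rows), with a point for each gene, a red line at the median after quantile normalization and a dashed blue line at the unscaled median relative to all genes. Of these 15 lists interferon-stimulated genes have the lowest red median, -0.32, and clustered histone genes the highest, 0.43.

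Several of the lower genes rest on a single probe or on probes that differ. MARF1, which acts in RNA decay, had the lowest ratio of all, -1.96, with log2 signals of 8.11 with imetelstat and 10.07 with vehicle, and it lay between 9.80 and 10.23 on the arrays of the other lines. It has 1 detected probe. The other lower genes with 1 detected probe and outside the groups above were PTMA, the abundant nuclear protein prothymosin, at -1.16, the transcriptional repressor NAB1 at -1.15, PAXIP1, which acts in the DNA damage response, at -1.11 and IARS1, the isoleucyl-tRNA synthetase, at -1.08. On the higher side these were the rhomboid protease RHBDL2 at 1.34, with log2 signals of 8.68 with imetelstat and 7.34 with vehicle, the noncoding RNA SNAR-A1 at 1.29 and ZFAND2A, a stress-induced zinc finger protein, at 1.02. SNAR-A1 belongs to a family of copies, which its probe may not tell apart. Among the 16 lower genes 5 had another detected probe, and only IFI6 was at least 1.5-fold lower by each of its probes. In ORC5, a subunit of the origin recognition complex, the other probe gave -0.03 beside -1.14, and in RTN3 it gave 0.06 beside -1.11. Among the 14 higher genes 2 had another detected probe, H2AC18 and H2BC12, and each of their probes was at least 1.5-fold higher. Over the 2599 genes with more than 1 detected probe, the ratios of a gene's probes spanned a median of 0.25, and the span was 0.60 at its 90th percentile. The brightest probe was at least 1.5-fold lower in 58 of these genes and at least 1.5-fold higher in 47. Every probe was that far apart in the same direction in only 7 and 8 genes, 15 in all. The lower ones were IFI6, NEK2, ETV5, KLF4, DUSP6, NUSAP1 and RSRP1, and the higher ones were H2AC18, SNHG15, H2BC12, SLC3A2, H2BC5, SBDSP1, UTP14A and NOP16. SLC3A2, a subunit of amino acid transporters, was at 0.78 and 0.90 by its probes.

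**Figure D4:**
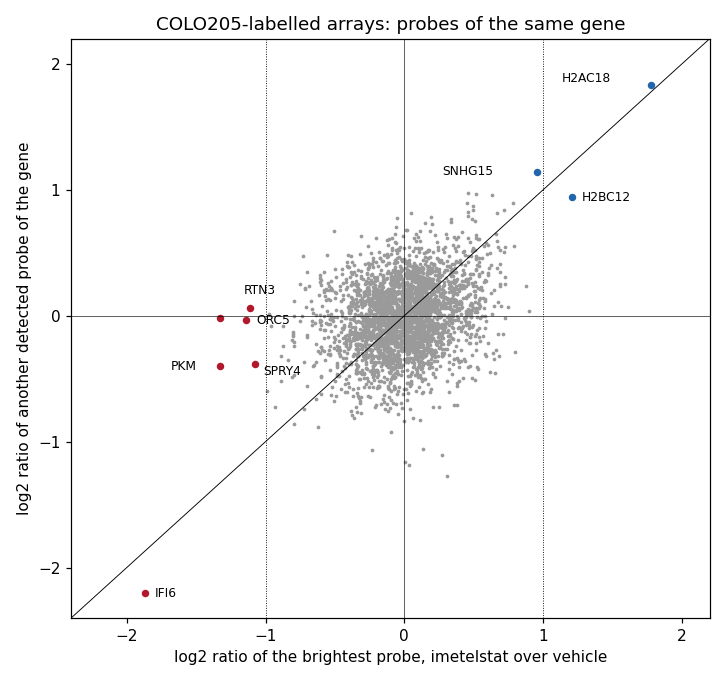
Log2 ratio of imetelstat over vehicle on the COLO205-labelled arrays for the brightest probe of a gene (horizontal axis) and for each other detected probe of that gene (vertical axis), for 2599 genes, with dotted lines at 2-fold and a line of equality. IFI6, H2AC18, H2BC12 and SNHG15 lie near the line of equality, while PKM, ORC5, RTN3 and SPRY4 lie far to its left.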

How the data were processed

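Total RNA of the COLO205-labelled cells was turned into labelled antisense RNA with the MessageAmp kit and put on Illumina HumanHT-12 V4 arrays. How far this labelling captured RNAs without a poly(A) tail was not tested. The authors deposited GenomeStudio signal intensities on a linear scale, without normalization or background subtraction, and a detection p-value for each probe. The authors' processed intensities, a quantile-normalized table on a linear scale, served as an alternative. For normalization the methods name lumi without a version. The platform annotation gave 1 symbol for 30113 of the 47231 probes, several for 8 and none for 17110, and 30074 symbols were brought up to date through their gene identifiers.

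The log2 signals were quantile-normalized over the 6 arrays with limma 3.58.1 in R 4.3.3, with unscaled values kept beside them. Probes with a detection p-value below 0.01 on at least 1 of the 2 COLO205 arrays were used, and the brightest stood for its gene. With 1 array a side a difference of 2-fold or more was the call, with no p-value, and the number of arrays limits the precision. For a gene that 1 array detected, the ratio is a bound, set by the dimmest detected probe of the other array. The normalization was tested on simulated data with known changes. These were placed only on probes detected on both COLO205 arrays and away from the dim and bright ends of the signal range. Recovery of changes in dimmer genes, such as OASL, FOSB and H2BC21, was not tested. Quantile normalization cannot raise a probe past the brightest rank.

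The members, the 36 gene lists and the tests were chosen with earlier results of these data known, and the list of ribosome assembly factors was added after its values were seen. Named genes were the 15 lowest and 15 highest ratios, genes whose probes were all at least 1.5-fold apart in the same direction, up to 4 members of each list, more where a family is described, and CXCL8, IL6, TNF, CDKN1A, TERT, TERC and ACTB. ITFG1, IRF1, RIGI, ISG15, GAPDH and the marker genes fall outside this rule. Alternatives were other scalings, normexp correction with an offset of 16, an offset of 32, the authors' processed intensities, other detection filters, other probe choices and limits of 1.5-fold and 3-fold. Sequences came from RefSeq (GRCh38.p14), 250 bases before to 50 after each start, and the files name no build. Other steps ran in Python 3.11.15 (pandas 2.3.3, numpy 2.4.6, matplotlib 3.10.9). Probe sequences were not used here.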

Additional observations from a re-analysis of the deposited data

Results flagged for a closer look

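Some gene lists and genes stood on one side on the COLO205-labelled arrays and on the opposite side on arrays labelled as another line. Which line the COLO205-labelled cells were cannot be told from these arrays alone. These differences were not tested, since each line has 1 array for each agent, and a list was taken to stand on a side where at least 0.75 of its members did. Clustered histone genes had a median log2 ratio of 0.43 in COLO205, with 14 of 18 higher with imetelstat, and -0.28 in HCT116, with 4 of 18 higher, a difference of 0.71. Among them H2AC18 was at 1.78 in COLO205 and -1.21 in HCT116, a difference of 2.996, and H2AC19 was at 1.94 and -1.20 in the same order, a difference of 3.14. Genes of G2 and mitosis had a median of -0.18 in COLO205, with 3 of 44 higher, and 0.41 in HCT116, with 43 of 44 higher, a difference of -0.59. The ribosome assembly factors, a list drawn up after the values were seen, had a median of 0.25 in COLO205, with 77 of 95 higher, and -0.21 in HCT116, with 14 of 95 higher, a difference of 0.46.

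Glycolysis and hypoxia genes had a median of -0.23 in COLO205, with 4 of 26 higher, and 0.17 in OVCAR5, with 22 of 26 higher, a difference of -0.41. Genes of fatty acid synthesis and desaturation had a median of -0.14 in COLO205, with 2 of 12 higher, 0.13 in HCT116, with 10 of 12 higher, and 0.30 in OVCAR5, with 12 of 12 higher, differences of -0.28 and -0.44. ID genes and BMP feedback genes had a median of 0.13 in COLO205, with 6 of 7 higher, -0.17 in HCT116, with 1 of 7 higher, and -0.65 in OVCAR5, with 0 of 7 higher, differences of 0.30 and 0.78.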

How the results depend on the processing

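The counts of genes at least 2-fold lower and higher with imetelstat, 16 and 14, moved with the scaling of the dimmer imetelstat array. They were 152 and 6 with no scaling, 109 and 6 with median scaling and 215 and 185 with normexp background correction. With a limit of 1.5-fold they were 202 and 195, and with 3-fold 2 and 2. Genes with more than 1 detected probe, each at least 2-fold the same way, numbered 1 and 1, a setting chosen after seeing the data. Under the other alternatives, the authors' processed intensities among them, they stayed within 1.5 times. With no scaling and median scaling the median log2 ratio was -0.21 and -0.16 for ID genes and BMP feedback, -0.25 and -0.20 for colon epithelium markers and -0.14 and -0.10 for ribosome assembly factors, where the median of all genes was itself -0.31 and -0.26. Relative to all genes these lists stayed above 0 without scaling, at 0.10, 0.06 and 0.17, as they did after quantile normalization. Among the single genes followed, none of those at least 2-fold apart turned its direction under any alternative. Normexp moved 6 of the 46 single genes by over 1.5-fold, all further from 0, among them OASL at -2.24 and FOSB at 2.27. With the mean of probes PKM was at -0.58 and RTN3 at -0.52. No paired analysis was possible because COLO205 has 1 array for each agent, which also leaves no replicate to drop. A fit over the 3 lines with the line as a block was not run here. Background that was not subtracted limits the dim genes.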
